A study of Mus musculus with 6 samples.

Results

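The 10 genes described here encode inflammasome sensors and the machinery of pyroptosis. They are Nlrp1b, Nlrp3, Nlrc4, Naip2, Naip5, Naip6, Pycard, Casp1, Casp4 and Gsdmd, found by gene name among the 27240 genes of the deposited table, where each had 1 row. Poly(A) RNA of mouse primary peritoneal macrophages, the phagocytes of the abdominal cavity, was sequenced in 3 libraries of the genotype labelled KO and 3 labelled WT. All 6 libraries were treated with oxLDL, low-density lipoprotein in oxidised form, which macrophages engulf. The series title names the kinase DCLK1, and the labels give neither the allele, the strain and age of the mice nor whether replicates came from separate animals. The p-values are thus set by how far these libraries spread, and that spread may be technical. Libraries without oxLDL were not analysed here, so each comparison is between genotypes under oxLDL.

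An inflammasome is a cytosolic complex in which a sensor protein, once triggered, gathers the adaptor ASC and the protease caspase-1. Caspase-1 matures interleukin-1 family cytokines and cuts gasdermin D, whose freed part forms pores in the plasma membrane and ends in a lytic death called pyroptosis. In macrophages exposed to modified lipoproteins the NLRP3 sensor is known to respond to cholesterol crystals and lysosomal damage. NAIP proteins bind bacterial flagellin or secretion system parts and hand the signal to NLRC4, and the product of Casp4 binds bacterial lipopolysaccharide in the cytosol.

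The sensors and effectors lay on both sides of the WT level, and every difference was small. Casp4, Nlrp3, Nlrc4, Gsdmd and Casp1 had lower values in each KO library than in any WT library. Nlrp1b, Naip6, Naip5 and Naip2 had higher values in each KO library than in any WT library, and only Pycard overlapped between the genotypes. The groups thus did not overlap for 9 of the 10 genes, while 17.6% of the 16239 genes tested did not overlap. Naip2, Naip5 and Naip6 may share reads, so these 9 are not 9 independent genes. The 10 genes were also chosen with earlier results of these data known. Of these 9, 5 were lower in KO, as were 8.89% of all genes tested, and 4 were higher in KO, as were 8.68%. At an unadjusted p under 0.05 there were 8 of the 10, against 10.4% of all genes tested. They were 4 lower in KO, against 5.71%, and 4 higher in KO, against 4.73%. The fitted log2 fold change was below 0 for 6 of the 10 genes and for 50.5% of all genes tested. Without KO replicate 1, 10 of the 10 had groups apart, against 28.3% of all genes tested. It was 9 of the 10 without KO replicate 2 (27.1%), KO replicate 3 (26.9%), WT replicate 1 (27.3%), WT replicate 2 (28.4%) or WT replicate 3 (28.2%). None of the 10 passed at an adjusted p under 0.05 in edgeR's quasi-likelihood test, by which 0.0677% of all genes tested passed, and none passed with limma on FPKM. With DESeq2 on the same counts 3 of the 10 passed, Naip5, Naip6 and Casp4, against 3.57% of the genes that DESeq2 gave an adjusted p. The 95% intervals of the 10 log2 fold changes lay between -0.54 and 0.64, all short of a 2-fold difference. The median log2 fold change was -0.11 over the 10 genes and -0.0019 over all genes tested. Over the 10 genes it was -0.07 without WT replicate 1. In such bulk libraries fewer cells of a type and less RNA per cell cannot be told apart.

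Total counts were 72559141 to 74172804 in KO libraries and 68053008 to 79090732 in WT libraries, and 1 count equalled 0.0127 to 0.0147 CPM, the count scaled to a common library total with TMM factors. The lowest count of any of the 10 genes in a library was 462, for Nlrp1b. WT replicate 1 lay farthest out on the first principal component, at -60.7, against 10.9 to 37.3 for KO libraries and -16.2 and -5.94 for the other two WT libraries. Dclk1 had 415, 431 and 377 counts in KO libraries, against 494, 498 and 584 counts in WT libraries (edgeR adjusted p = 0.332), so the RNA level over the whole gene checks the genotype labels only weakly. The macrophage markers Adgre1, Cd68, Csf1r, Itgam, Mertk, Mrc1, Lyz2 and Fcgr1 were all detected, and of these 8 Lyz2, a lysozyme gene, alone passed the test, lower in KO. Their sum was 12687 to 12829 CPM in KO and 20425 to 21679 CPM in WT libraries, most of it Lyz2. The difference in the sum was that of Lyz2, at 7970 CPM in KO and 16349 CPM in WT libraries. Cd68 was at 1993 and 1994 CPM, Adgre1 at 1016 and 1057 CPM and Csf1r at 965 and 1021 CPM in KO and WT libraries. Itgam was higher in KO, at 513 and 327 CPM.

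Some sequences bear on how the values are read. The NAIP genes are similar neighbours on chromosome 13, so a short read may match several of them. The longest open reading frames of Naip5 and Naip6 in GENCODE M21 transcripts are both 4212 bases long and are identical at 96.96% of the bases, with an identical run of up to 229 bases. That of Naip2 is less alike, with 89.97% identity to Naip5 and 89.66% to Naip6 over the aligned bases. A stretch of 90 bases, counted from base 93 to base 182 of each frame, was chosen after the frames were compared and is shown for how alike reads of these genes can be, with the 3 bases that differ in capitals.
Naip5 coding stretch: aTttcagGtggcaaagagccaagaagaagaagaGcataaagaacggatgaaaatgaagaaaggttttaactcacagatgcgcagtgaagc
Naip6 coding stretch: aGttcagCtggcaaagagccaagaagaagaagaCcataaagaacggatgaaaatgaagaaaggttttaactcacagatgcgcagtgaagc
Of the 50-base sequences in the transcripts of Naip5, 36.8% also occur in another gene, and 22.3% occur in Naip6. The share found in other genes was 21.5% for Naip6 and 19.1% for Naip2. The counts of the 3 NAIP genes are therefore uncertain as levels of single genes, since the counting tool is not given in the sources used here. For Nlrp1b the share was 1.45% and for Nlrc4 it was 1.09%, while Nlrp3, Pycard, Casp1, Casp4 and Gsdmd shared none. Pycard overlaps a gene on the opposite strand, Gm45205, by 485 exonic bases, so their reads may not be separable without strand information, which the labels do not mention.

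RefSeq promoter windows (GRCm38.p6, 250 bases before to 50 after an annotated start) were found for 9 of the 10 genes. These genes had 12 windows. Motifs were searched in all of them, and only the first listed window of a gene was aligned or printed. The windows of Naip2 (chr13:100202073-100202372, minus strand) and Naip5 (chr13:100247287-100247586, minus strand) are shown because they are the NAIP pair whose windows align over the longest stretch, with that stretch in capitals. The Naip5 window lies wholly outside the deposited Naip5 gene (100211739 to 100246323), so its annotated start differs from that of the counted gene.
Naip2 promoter: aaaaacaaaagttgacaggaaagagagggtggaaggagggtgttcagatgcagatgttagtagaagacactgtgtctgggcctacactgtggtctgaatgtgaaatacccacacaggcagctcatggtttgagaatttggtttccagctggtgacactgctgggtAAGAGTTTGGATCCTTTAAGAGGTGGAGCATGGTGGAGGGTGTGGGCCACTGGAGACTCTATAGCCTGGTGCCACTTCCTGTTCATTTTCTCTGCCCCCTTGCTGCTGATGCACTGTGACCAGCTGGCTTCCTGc
Naip5 promoter: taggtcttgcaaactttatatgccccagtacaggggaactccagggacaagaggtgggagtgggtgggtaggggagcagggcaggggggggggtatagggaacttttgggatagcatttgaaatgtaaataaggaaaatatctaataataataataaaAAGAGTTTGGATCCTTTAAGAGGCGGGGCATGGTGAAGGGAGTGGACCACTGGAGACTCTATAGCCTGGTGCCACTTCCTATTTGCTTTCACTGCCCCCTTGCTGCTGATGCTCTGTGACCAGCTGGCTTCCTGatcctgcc
This stretch has 134 aligned positions, of which 91.8% are identical. The window of Naip6 aligned over 19 positions with that of Naip2 and over 30 with that of Naip5, so no such stretch was found in its window. A window of Casp4 (chr9:5308599-5308898, plus strand), the gene with the lowest KO level relative to WT among the 10, is shown with its matches to the kappaB motif in capitals.
Casp4 promoter: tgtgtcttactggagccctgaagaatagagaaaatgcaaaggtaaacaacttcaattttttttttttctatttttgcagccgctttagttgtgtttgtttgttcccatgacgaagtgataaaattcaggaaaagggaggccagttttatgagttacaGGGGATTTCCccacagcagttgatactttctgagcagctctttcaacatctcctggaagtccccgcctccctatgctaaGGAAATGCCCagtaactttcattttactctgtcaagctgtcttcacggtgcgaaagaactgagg
The motif, GGG, any 2 bases and then TTTCC, was searched on both strands, as were the others. In the window shown, a match begins 93 bases before the annotated start on the plus strand. Another lies on the minus strand, and its base farthest upstream is 14 bases before that start. In a further Casp4 window, with a different annotated start, the farthest upstream bases of the matches lie 104 and 25 bases before that start. Of 32851 promoter windows in the table, 1.63% hold a match, and Casp4 alone did among the 9 genes. The IRF motif, GAAA, any 2 bases and again GAAA, held by 3.44% of windows, and the STAT motif TTCNNNGAA, held by 8.30%, matched in none of the 9 genes. The PU.1 motif GAGGAAGT, held by 3.20% of windows, matched in Nlrp1b and Pycard. These matches describe letters and do not show binding.

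The order of the 10 genes by level per length was compared in the deposited FPKM values, which are scaled for gene length and library size. Naip2 stood first, at 89.6 to 91.2 FPKM in KO libraries and 83.4 to 87.3 FPKM in WT libraries, above 97.3% of the genes tested. Casp1 followed at 34.9 to 38.0 FPKM in KO libraries and 38.1 to 44.4 FPKM in WT libraries. Gsdmd came next at 22.8 to 24.1 FPKM in KO libraries and 24.99 to 27.5 FPKM in WT libraries. The protease and the pore protein it cuts were thus among the more abundant transcripts of these cells. Pycard was at 9.85 to 11.7 FPKM in KO libraries and 10.6 to 11.6 FPKM in WT libraries. Nlrp1b was the lowest of the 10, at 1.17 to 1.39 FPKM in KO libraries and 0.964 to 1.05 FPKM in WT libraries.

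Neighbours in this order changed places between the genotypes. In KO libraries Naip5 was at 8.49 to 8.63 FPKM, above Casp4 at 5.86 to 7.03 FPKM. In WT libraries Naip5 was at 6.86 to 7.47 FPKM, below Casp4 at 7.93 to 8.83 FPKM. Naip6 and Nlrc4 did the same. Naip6 was at 4.66 to 5.13 FPKM in KO libraries, above Nlrc4 at 3.54 to 3.90 FPKM there, and at 3.58 to 4.09 FPKM in WT libraries, below Nlrc4 at 4.16 to 4.53 FPKM there. Over all 6 libraries these 2 pairs, and Casp4 with Nlrp3 (5.83 to 6.05 FPKM in KO and 6.56 to 8.58 FPKM in WT libraries), overlapped in level, and the other neighbours in the order did not. The changes of place follow from the single genes, since Naip5 and Naip6 lay higher and Casp4 and Nlrc4 lower in each KO library. They are no separate result, and the levels of Naip5 and Naip6 are uncertain through their shared sequence.

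**Figure D1:**
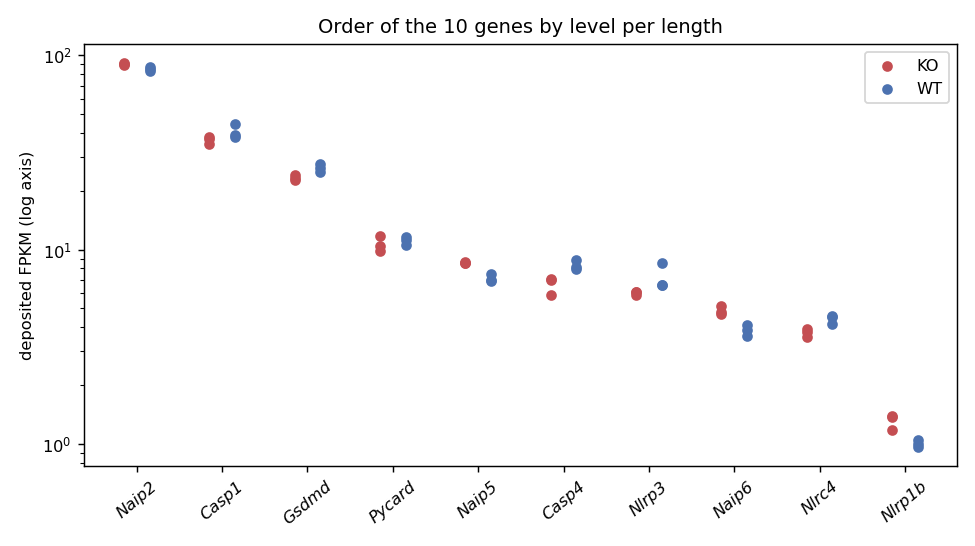
Deposited FPKM (log axis) of each of the 10 genes in the 3 KO libraries (red) and 3 WT libraries (blue), ordered by the mean over all 6 libraries. Naip2 stands near 90 FPKM and Nlrp1b near 1 FPKM, and Naip5 lies above Casp4 in KO libraries and below it in WT libraries. That change of place follows from the values of the single genes.

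Among the sensors, Nlrp3 (ENSMUSG00000032691, chromosome 11, 59541568 to 59566956, plus strand, GRCm38) is the one linked to crystals and lysosomal rupture. It was at 27.2, 26.2 and 27.2 CPM in KO libraries, against 38.8, 29.9 and 29.7 CPM in WT libraries. The KO libraries lay close together below all 3 WT libraries, of which replicate 1 stood well above the other two. The mean was 26.9 ± 0.551 CPM in KO and 32.8 ± 5.20 CPM in WT libraries (SD, n = 3 each), a log2 fold change of -0.29 (SE 0.110, 95% interval -0.54 to -0.03, edgeR adjusted p = 0.412). Without WT replicate 1 the log2 fold change was -0.15 (edgeR adjusted p = 0.575, with a range of 0.198 to 0.631 over all alternatives).

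Nlrp1b (chromosome 11, 71153102 to 71230733, minus strand) encodes the sensor of proteolytic cleavage by anthrax lethal factor. It was at 8.21, 9.65 and 9.73 CPM in KO libraries, against 6.80, 7.46 and 7.01 CPM in WT libraries. Every KO library lay above every WT library, with replicate 1 the lowest of its group in both. This was the widest difference upward among the 10 genes, with a log2 fold change of 0.38 (SE 0.114, 95% interval 0.11 to 0.64, edgeR adjusted p = 0.303). On the log2(FPKM + 1) scale it was 0.21, since the added 1 weighs on a gene near 1 FPKM.

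Nlrc4 (chromosome 17, 74425438 to 74459142, minus strand) encodes the protein that NAIP sensors recruit. It was at 20.0, 20.8 and 18.9 CPM in KO libraries, against 24.3, 22.5 and 24.05 CPM in WT libraries. The groups did not overlap, KO being the lower, with a log2 fold change of -0.25 (SE 0.0714, 95% interval -0.41 to -0.08, edgeR adjusted p = 0.273).

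The NAIP genes, which encode the partners that bind bacterial ligands for NLRC4, lay on the other side. Naip2 (chromosome 13, 100144063 to 100202092, minus strand), whose product binds the inner rod of bacterial secretion systems, was at 489.9, 488 and 481 CPM in KO libraries, against 450.5, 463 and 472 CPM in WT libraries. Its difference was the narrowest of the 9 genes whose groups did not overlap, with a log2 fold change of 0.07 (SE 0.0316, edgeR adjusted p = 0.471). Naip5 (chromosome 13, 100211739 to 100246323, minus strand), a flagellin sensor, was at 49.2, 49.9 and 49.0 CPM in KO libraries, against 39.8, 40.9 and 43.4 CPM in WT libraries. The 3 KO values lay within 1 CPM of each other and above all WT values, with a log2 fold change of 0.25 (SE 0.0549, 95% interval 0.13 to 0.38). Its edgeR adjusted p was 0.151, the lowest of the 10 genes, and its DESeq2 adjusted p was 0.0115, with a range of 0.0115 to 0.396 over all alternatives. Naip6 (chromosome 13, 100281121 to 100317674, minus strand), also a flagellin sensor, was at 35.2, 36.1 and 38.9 CPM in KO libraries, against 31.1, 27.4 and 29.6 CPM in WT libraries. Again no WT value reached the KO values, with a log2 fold change of 0.32 (SE 0.0716, 95% interval 0.16 to 0.49, edgeR adjusted p = 0.161, DESeq2 adjusted p = 0.0094, range over alternatives 0.0094 to 0.419).

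A sum over the 3 NAIP genes does not depend on how counted reads are split among these 3. If the counting tool drops reads that match several genes, the sum loses them too. The sum also depends on reads shared with other NAIP genes. Of the 50-base sequences of Naip2, 12.3% also occur in Naip1 and 10.7% in Naip3. For Naip5 these shares were 13.8% and 14.5%. The summed level was 574, 574 and 569 CPM in KO libraries, against 521, 531 and 545 CPM in WT libraries. Each KO sum lay above each WT sum, with means of 573 ± 3.04 CPM in KO and 533 ± 11.96 CPM in WT libraries (SD, n = 3 each). By exact permutation (two-sided) p was 0.1, and no smaller value can be had with 3 libraries a group. Fitted as 1 gene, the sum had a log2 fold change of 0.10 (SE 0.0305, edgeR adjusted p = 0.300), which is mostly that of Naip2. Naip1, a further NAIP gene, was at 14.9, 20.1 and 15.6 CPM in KO libraries, against 13.7, 12.2 and 15.9 CPM in WT libraries, with groups that overlapped (edgeR adjusted p = 0.576).

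**Figure D2:**
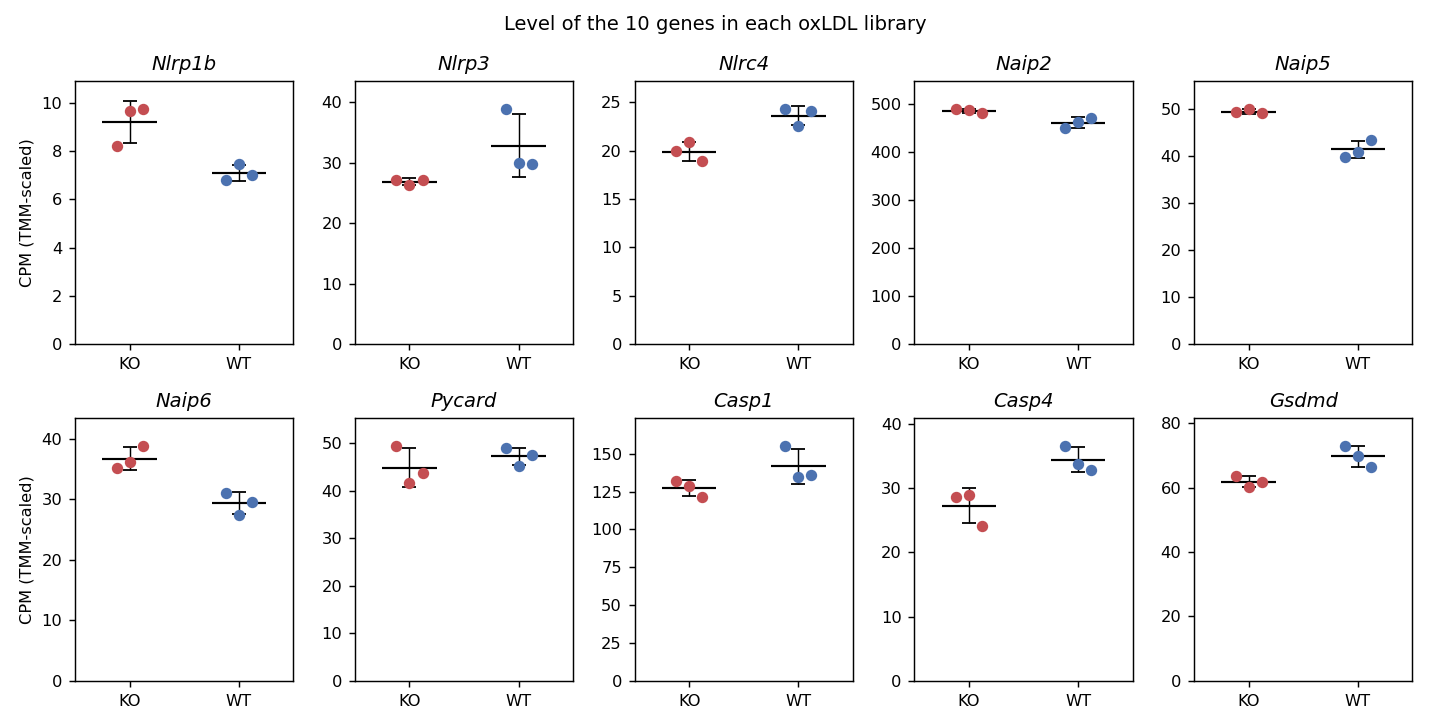
CPM of each of the 10 genes in KO libraries (red) and WT libraries (blue); each point is a library, lines are means and bars are SD over 3 libraries, and each axis starts at 0. Groups are apart for all genes except Pycard, and WT replicate 1 is the highest point for Nlrp3, Nlrc4, Casp1, Casp4 and Gsdmd.

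Pycard (chromosome 7, 127989708 to 127993867, minus strand) encodes ASC, the adaptor between sensors and caspase-1. It was at 49.5, 41.6 and 43.7 CPM in KO libraries, against 48.9, 45.3 and 47.6 CPM in WT libraries. KO replicate 1 was the highest of all 6 libraries and KO replicate 2 the lowest, so the groups overlapped (log2 fold change -0.07, SE 0.0765, 95% interval -0.25 to 0.11, edgeR adjusted p = 0.802). The log2 fold change was -0.15 without KO replicate 1 and -0.02 without KO replicate 2, and -0.05 without WT replicate 1 (edgeR adjusted p between 0.572 and 0.968 over all alternatives).

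The inflammatory caspases lie next to each other on chromosome 9. Casp1 (5298508 to 5307290, plus strand) encodes caspase-1, the protease of canonical inflammasomes. It was at 132, 129 and 121 CPM in KO libraries, against 155, 134 and 136 CPM in WT libraries. The gap between the highest KO and the lowest WT library was narrow, and WT replicate 1 stood above the rest (log2 fold change -0.16, SE 0.0670, 95% interval -0.31 to 0.0011, edgeR adjusted p = 0.482). Without WT replicate 1 the log2 fold change was -0.09 (edgeR adjusted p = 0.709, with a range of 0.338 to 0.735 over all alternatives).

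Casp4 (5308828 to 5336783, plus strand) encodes the mouse caspase of the non-canonical pathway, which senses lipopolysaccharide and cuts gasdermin D directly. It was at 28.7, 29.0 and 24.2 CPM in KO libraries, against 36.6, 33.8 and 32.8 CPM in WT libraries. The KO level was 79.2% of the WT level, the lowest share among the 10 genes, and no library of one genotype reached the other. Its log2 fold change stood at -0.34 (SE 0.0881, 95% interval -0.54 to -0.13) with an edgeR adjusted p of 0.228 and a DESeq2 adjusted p of 0.033, and over all alternatives the adjusted p ranged between 0.033 and 0.481. Without WT replicate 1 it was -0.29, and without KO replicate 3, the lowest library, it was -0.26 (edgeR adjusted p = 0.481 and 0.458).

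Gsdmd (chromosome 15, 75862327 to 75867408, plus strand) encodes gasdermin D, the pore protein that both caspases cut. It was at 63.6, 60.2 and 61.7 CPM in KO libraries, against 72.9, 70.0 and 66.3 CPM in WT libraries. All KO values lay below all WT values, with a log2 fold change of -0.17 (SE 0.0543, 95% interval -0.30 to -0.05, edgeR adjusted p = 0.319).

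**Figure D3:**
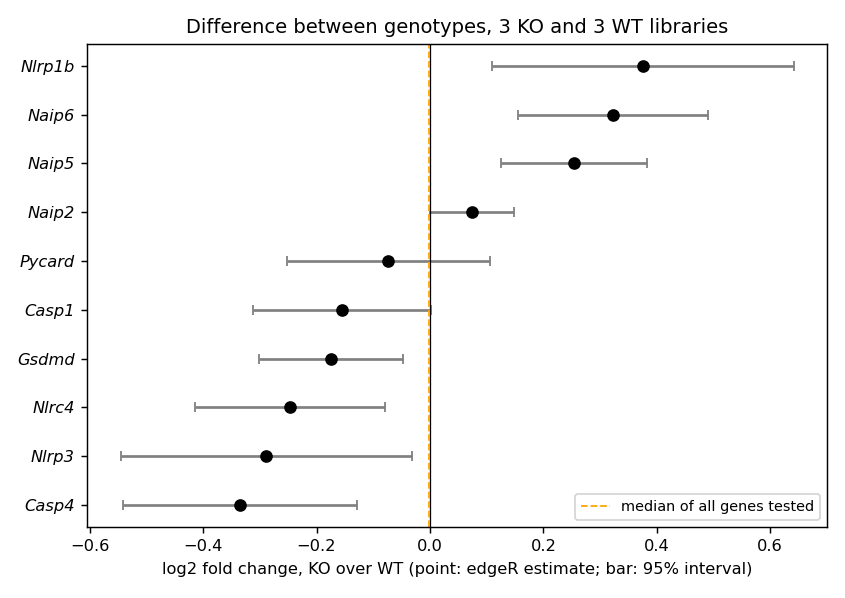
Log2 fold change of the 10 genes, KO over WT, from edgeR (points) with 95% intervals (bars); the dashed line is the median of all 16239 genes tested. Estimates run from -0.34 for Casp4 to 0.38 for Nlrp1b, and the intervals of Pycard and Casp1 include 0.

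Ratios within a library do not depend on library size and show how partners stood to each other. They were chosen after the values were seen and are given with no test. The FPKM ratio of Naip5 to Nlrc4 was 2.28, 2.21 and 2.40 in KO libraries, against 1.51, 1.68 and 1.67 in WT libraries. The ratio of Naip6 to Nlrc4 was 1.24, 1.22 and 1.45 in KO libraries, against 0.903, 0.859 and 0.865 in WT libraries. The ratio of Naip2 to Nlrc4 was 23.3 to 25.3 in KO libraries, against 18.4 to 20.4 in WT libraries. Each ligand-binding NAIP transcript was thus more abundant relative to Nlrc4 in each KO library than in any WT library. That outcome was fixed by the single genes, since the NAIP genes lay higher and Nlrc4 lower in each KO library. It is no separate result. Between sensors, the ratio of Nlrp3 to Nlrp1b was 4.23 to 5.16 in KO libraries, against 6.23 to 8.90 in WT libraries. Its separation was fixed in the same way, by a lower Nlrp3 and a higher Nlrp1b. The ratio of Nlrc4 to Nlrp3 overlapped, at 0.586 to 0.670 in KO and 0.528 to 0.682 in WT libraries, as did that of Naip5 to Naip6, at 1.65 to 1.83 in KO and 1.68 to 1.95 in WT libraries. Of the caspases, the ratio of Casp4 to Casp1 was 0.183, 0.190 and 0.168 in KO libraries, against 0.199, 0.213 and 0.204 in WT libraries, again with no overlap. Gsdmd and Pycard kept overlapping ratios to Casp1, of 0.616 to 0.671 in KO and 0.620 to 0.687 in WT libraries for Gsdmd, and of 0.266 to 0.309 in KO and 0.260 to 0.289 in WT libraries for Pycard.

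**Figure D4:**
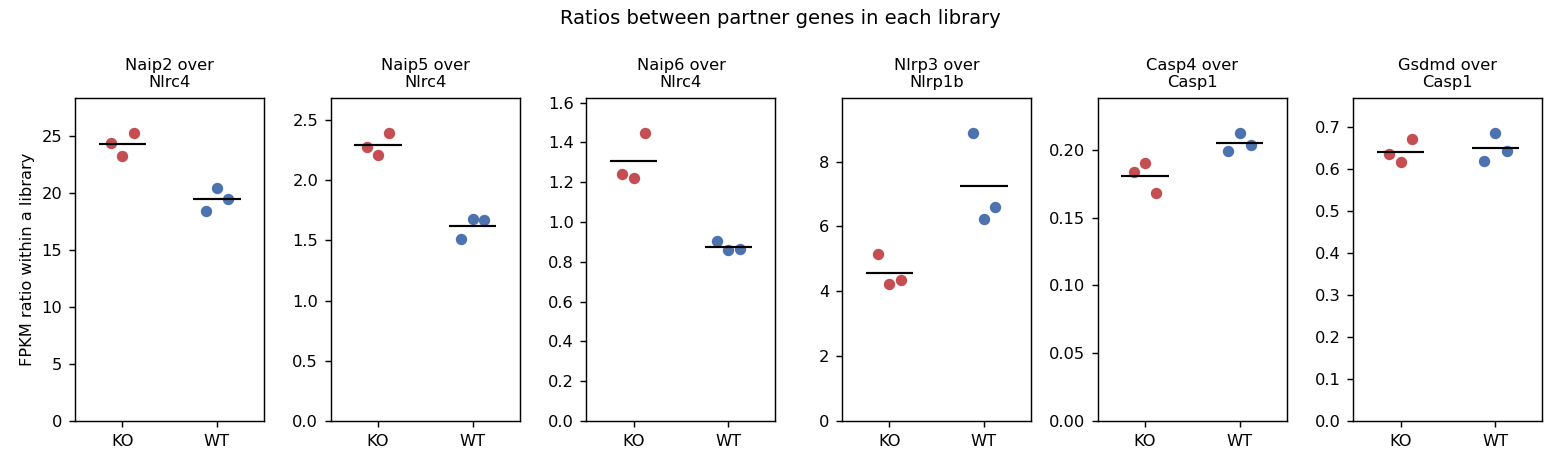
FPKM ratio between pairs of the 10 genes in each KO library (red) and WT library (blue), with the mean as a line and axes from 0. The 3 NAIP to Nlrc4 ratios are higher in all KO libraries, Nlrp3 to Nlrp1b and Casp4 to Casp1 are lower, and Gsdmd to Casp1 overlaps at about 0.64.

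Other genes of the pathway were taken from 6 lists. No member of any list passed over all genes in edgeR. Of 11 tested further sensors and sensor partners, 2 had lower and 1 a higher KO value at an unadjusted p under 0.05 (5.71% and 4.73% of all genes tested), and the median log2 fold change was 0.02. The lower ones were Nlrc5 and Nod1. Nlrc5, a regulator of MHC class I genes, was at 64.6 ± 3.85 CPM in KO and 88.8 ± 11.7 CPM in WT libraries (SD, n = 3 each; edgeR adjusted p = 0.145). Nod1, a sensor of bacterial cell wall fragments, had a log2 fold change of -0.29 (SE 0.0903, edgeR adjusted p = 0.318). Nlrc3, an inhibitory NLR, was at 31.1 ± 3.84 CPM in KO and 24.2 ± 1.27 CPM in WT libraries (edgeR adjusted p = 0.255). Pstpip1, which binds pyrin, was at 75.9 and 75.7 CPM in KO and WT libraries (edgeR adjusted p = 0.992).

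Among 12 tested genes of licensing and triggering, 3 had lower and none a higher KO value at an unadjusted p under 0.05 (5.71% and 4.73% of all genes tested), with a median of -0.10. They were Irf1, Gbp2 and Gbp5; the guanylate-binding proteins help to expose bacterial lipopolysaccharide to the Casp4 product. Irf1, a transcription factor, was at 85.2 ± 11.1 CPM in KO and 170.3 ± 33.6 CPM in WT libraries (SD, n = 3 each; edgeR adjusted p = 0.076). Gbp2 was at 245 ± 24.7 and 429 ± 74.4 CPM in KO and WT libraries (edgeR adjusted p = 0.080). Gbp5 was at 16.2 ± 2.51 and 35.8 ± 10.3 CPM in KO and WT libraries (edgeR adjusted p = 0.108). The ion channel gene P2rx4 was at 282 and 269.8 CPM (edgeR adjusted p = 0.627).

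Of the 7 other caspase genes none passed, and their median log2 fold change was 0.05. Casp8, the initiator that also links to inflammasomes, was at 56.8 CPM in KO and 54.7 CPM in WT libraries (edgeR adjusted p = 0.861).

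Of 5 tested genes for substrates and for pore or rupture proteins, 1 had a lower and 1 a higher KO value at an unadjusted p under 0.05 (5.71% and 4.73% of all genes tested). Gsdme, a further pore-forming gasdermin, was at 11.6, 11.3 and 13.1 CPM in KO libraries, against 9.28, 9.10 and 8.15 CPM in WT libraries, above them in each case (log2 fold change 0.44, SE 0.105, edgeR adjusted p = 0.184). Ninj1, which carries out the final rupture of the plasma membrane, was at 240.04 ± 6.35 CPM in KO and 262 ± 9.35 CPM in WT libraries (SD, n = 3 each; edgeR adjusted p = 0.355). Il1a, the most abundant cytokine gene of this list, was at 128 and 131 CPM (edgeR adjusted p = 0.867). The cytokine substrates of caspase-1 were scarce in both genotypes, unlike Gsdmd. Il1b was at 0.669 and 0.641 CPM and Il18 at 1.61 and 1.67 CPM in KO and WT libraries.

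Of 12 inhibitors and membrane repair genes, 2 had lower KO values at an unadjusted p under 0.05 (5.71% of all genes tested) and the median was -0.01. They were Serpinb9, a protease inhibitor, at 63.5 ± 3.999 CPM in KO and 75.2 ± 2.70 CPM in WT libraries (SD, n = 3 each; edgeR adjusted p = 0.204), and the membrane repair gene Chmp4b, at 287 ± 6.47 and 309 ± 10.2 CPM (edgeR adjusted p = 0.407). Pdcd6ip, which brings repair proteins to damaged membranes, was at 271 and 269.7 CPM (edgeR adjusted p = 0.975). Of the 4 necroptosis genes, the executioner Mlkl was at 61.7 ± 2.58 CPM in KO and 73.0 ± 4.98 CPM in WT libraries (edgeR adjusted p = 0.239). The nucleic acid sensor Zbp1 was at 52.6 ± 2.78 and 76.8 ± 12.9 CPM in KO and WT libraries (edgeR adjusted p = 0.149), and the kinase gene Ripk1 at 111 and 108 CPM (edgeR adjusted p = 0.850).

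Markers of other cells that may accompany a peritoneal wash were read beside these values. Summed dendritic cell markers (6 of 7 tested, none called) were at 24.2 to 25.6 CPM in KO and 30.4 to 36.7 CPM in WT libraries. Most of that sum was Fscn1, at 11.8 CPM in KO and 16.9 CPM in WT libraries, and Ccr7, at 9.34 and 11.7 CPM. Flt3, at 1.44 and 1.41 CPM, and Zbtb46, at 1.30 and 1.34 CPM, overlapped between the genotypes. Summed T and NK cell markers (7 of 8 tested, none called) were at 12.9 to 13.6 CPM in KO and 15.99 to 19.7 CPM in WT libraries. Fibroblast and mesothelial markers (8 of 8 tested, none called) summed to 85.5 to 99.2 CPM in KO and 110.04 to 114.7 CPM in WT libraries, and mast cell markers (5 of 6 tested, none called) to 3.02 to 4.25 CPM and 4.98 to 6.10 CPM. These 4 sums lay lower in KO in the same libraries as the 5 lower genes, and their part in those values was not tested. Neutrophil markers (3 of 8 tested, none called) summed to 102 to 104 CPM in KO and 99.8 to 108 CPM in WT libraries, with Ly6g and Retnlg at 0 counts in all 6 libraries. Monocyte markers (4 of 4 tested, none called) summed to 322 to 361 CPM in KO and 283 to 350.4 CPM in WT libraries, and B cell markers (6 of 6 tested, none called) to 56.1 to 68.3 CPM and 65.4 to 80.9 CPM. Large peritoneal macrophage markers (5 of 6 tested, none called) summed to 554 to 563 CPM in KO and 487 to 524 CPM in WT libraries, so this sum lay higher in KO as Nlrp1b and the NAIP genes did, and its part in those values was not tested. Nearly all of it was Cd9, at 543 ± 4.55 CPM in KO and 496 ± 22.4 CPM in WT libraries (SD, n = 3 each). Gata6 and Timd4, the defining genes of these cells, had log2 fold changes of -0.41 and -0.56 (edgeR adjusted p = 0.606 and 0.613).

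**Figure D5:**
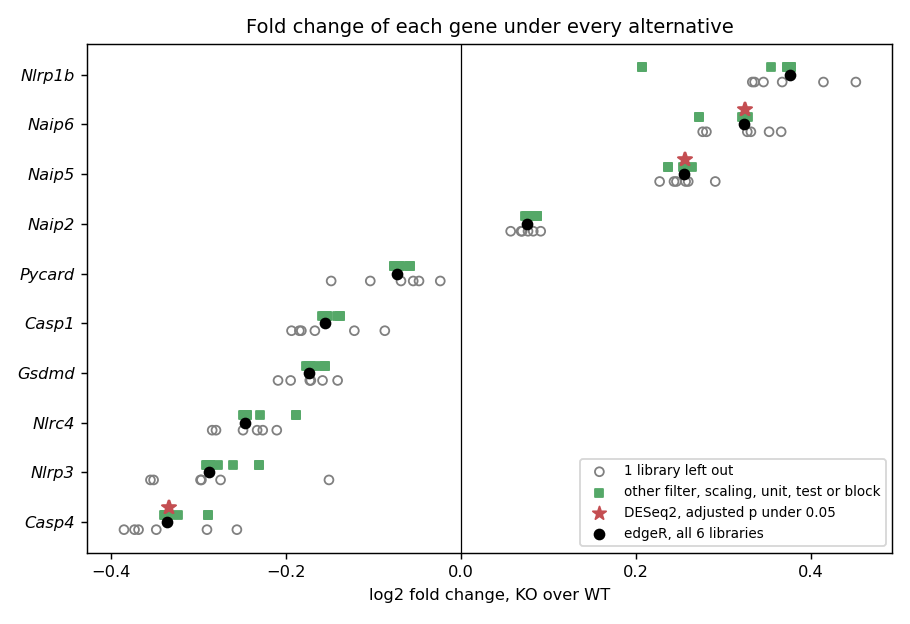
Log2 fold change of each of the 10 genes, KO over WT, in edgeR with all 6 libraries (black), with 1 library left out (open circles) and under another filter, scaling, unit, test or block (green); stars mark an adjusted p under 0.05 in DESeq2. No gene crosses 0 under any alternative, and Nlrp3 moves to -0.15 without WT replicate 1.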

How the data were processed

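Poly(A) RNA of 6 oxLDL-treated macrophage samples was sequenced as paired-end libraries, per the labels' protocols. The submitters' processing notes list HISAT2 2.0. For the build, annotation and counting tool, nothing is given in the sources used here. The authors deposited a raw count for each gene, in whole numbers. They also deposited FPKM, a level per gene length and library size, per the file headers. Another 12 value columns fit no sample of this series and were left unused. Coordinates are as deposited, and those of 9 of the 10 genes are the same in GENCODE M21 (GRCm38); those of Casp1 differ there.

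All 27240 genes were filtered by filterByExpr (16239 kept), scaled by TMM and tested two-sided in edgeR 4.0.16 (R 4.3.3) by quasi-likelihood; genotype was the one term. Every gene of the 10 passed this filter. P-values were adjusted by Benjamini-Hochberg over all genes tested, with a threshold of 0.05. Alternatives used DESeq2 1.42.0, limma 3.58.1 on log2(FPKM + 1) or log2(FPKM + 0.1) where 3 or more libraries reached 1 FPKM, no filter, RLE size factors, a replicate block and each library left out. DESeq2 was first run on all genes with a count and then, after its calls were seen, on the filtered genes. The fit was tested on simulated data. Chi-square over degrees of freedom was 36.7 to 42.8 between libraries of the same genotype, so none was counted as a duplicate. Where gene IDs shared a symbol in a list, the one of highest mean CPM was used. Nlrp6 and Irgb10 were not found by name in the table and are not analysed here.

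The 10 genes, lists and tests were chosen with earlier results of these data known. All 10 genes are named, and each list gave its 2 most abundant genes and the 2 of smallest unadjusted p, since none passed; some genes that this rule names are not reported here. Il1b, Il18, Naip1, Nod1, Gbp5, Nek7, Tlr4, Casp9 and Hmgb1 were named after their values were seen, and the motifs and ratios were chosen then too.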

Additional observations from a re-analysis of the deposited data

How the results depend on the processing

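All 147 alternative fits of the 10 single genes kept the direction of the edgeR fit with all 6 libraries. In 141 of them the gene stayed above an adjusted p of 0.05, and in 6, all with DESeq2, it passed: Naip5 (log2 fold change 0.26, or 0.25 with no filter), Naip6 (0.32 in both) and Casp4 (-0.33 in both). DESeq2 therefore called 3 of the 10 and edgeR and limma called 0 in every other fit. The number of genes called over the whole table was 11 in that edgeR fit, 455 with DESeq2, 413 with DESeq2 and no filter (the version run first), 7 with no filter, 7 with limma on log2(FPKM + 0.1), 4 with limma and no filter and 3 with the replicate number as a block. It was 7 to 35 when a library was left out, with 35 without KO replicate 1, 24 without WT replicate 2 and 7 without WT replicate 1. The cause of these shifts was not tested. Leaving out a library (for these counts a choice made with the values known) gave 9 or 10 of the 10 genes with groups apart and a log2 ratio of the summed NAIP level of 0.09 to 0.12. Under the replicate block 0 of the 10 passed (adjusted p = 0.293 for Casp4 and 0.309 for Naip6). Deviations of same-numbered libraries correlated at 0.0488, 0.0265 and 0.0173, and every library correlated best with its own number, but the labels give no pairing. The scalings moved the median of all genes by under 0.1. Counting error weighs most on Nlrp1b, the gene with the fewest counts (462 in WT replicate 1), and 3 libraries a group limit the test.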

Other observations

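Some genes around inflammasome activation differed between libraries of the same genotype by more than any of the 10 genes did. Nek7, which encodes a kinase that binds NLRP3, was at 110.1, 29.7 and 109.8 CPM in KO libraries, against 108, 33.3 and 32.0 CPM in WT libraries. The libraries fell near 2 levels, and each genotype held both. Casp9, the initiator caspase of the apoptosome, was at 12.1, 16.04 and 39.8 CPM in KO libraries, against 11.8, 38.7 and 39.99 CPM in WT libraries, also with both levels in each genotype. Tlr4, the receptor for extracellular lipopolysaccharide, was at 16.5, 18.1 and 14.4 CPM in KO libraries, against 89.3, 20.0 and 17.2 CPM in WT libraries, so that WT replicate 1 alone was high. Hmgb1, which encodes a chromatin protein released by dying cells, was at 43.6, 26.3 and 23.8 CPM in KO libraries, against 43.2, 44.1 and 43.9 CPM in WT libraries. None of these 4 passed in edgeR (adjusted p = 0.826, 0.861, 0.493 and 0.482), and the cause of their spread was not tested.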
